A study of Mus musculus with 20 samples.

Results

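The blood-spinal cord barrier genes described here are Cldn5, Ocln, Tjp1, Pecam1, Abcb1a, Abcg2, Slco1c1, Slco1a4 and Mfsd2a. They were taken as a list of 9 named genes, and each had exactly 1 probe set that carries its symbol and no other, so 9 of 9 were measured among the 22180 genes tested. Their transcripts were measured in mouse spinal cord on Affymetrix whole-transcript arrays, 1 array per sample, with 5 arrays in each of 4 groups. The Cx30GRko mice, titled Tg in the labels, lack the glucocorticoid receptor in cells where the connexin 30 gene drives Cre recombinase, which in the cord are mainly astrocytes. Control mice are titled wt. All animals are described as C57BL/6J mice of 6 to 10 weeks. The groups were Cx30GRko mice given dexamethasone (Dex, a synthetic glucocorticoid receptor agonist, 4 mg/kg intraperitoneally), Cx30GRko mice given saline, control mice given Dex and control mice given saline, and tissue was taken 4 h after the injection. The endothelial cells of a Cx30GRko mouse keep their receptor unless they express connexin 30, and the whole cord was measured, so the arrays hold RNA of every cell type in it.

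The blood-spinal cord barrier is formed by the endothelial cells of the cord's capillaries, with pericytes and the end feet of astrocytes around them. Tight junction proteins seal the gap between neighbouring endothelial cells, efflux pumps return drugs and other foreign compounds to the blood, and carriers let nutrients and hormones through. Glucocorticoids are known from cultured brain endothelial cells to raise junction proteins such as occludin and claudin-5, which is one reason to look at these genes after Dex.

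The genes fall into 3 roles. Cldn5 (probe set 17323755) encodes claudin-5, the main claudin of brain endothelial tight junctions, Ocln (17295670) the junction protein occludin, Tjp1 (17491853) the scaffold protein ZO-1, and Pecam1 (17270937) the adhesion molecule CD31 of endothelial cell contacts. Abcb1a (17434524) encodes a P-glycoprotein and Abcg2 (17459014) the breast cancer resistance protein, both pumps on the blood-facing membrane. Slco1c1 (17464063) encodes a thyroid hormone carrier, Slco1a4 (17472364) a carrier of organic anions, and Mfsd2a (17429632) the carrier of docosahexaenoic acid bound to lysophosphatidylcholine, which also holds back vesicle transport across brain endothelium. Tjp1 is made in many other cell types, and Slco1c1 is also found in astrocytes, so their signals in whole cord are not endothelial alone.

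Promoter sequences are shown for Slco1c1 and Mfsd2a, the pair called for Dex below, and for Abcb1a, the only gene of the 9 whose promoter held a receptor hexamer. They come from RefSeq, build GRCm38.p6, run 5′ to 3′ on the gene's strand, and span 250 bases before to 50 bases after the annotated start. RefSeq gave 11 such promoters for 8 of the 9 genes. Capitals mark the 6-base hexamer that makes up each side of the glucocorticoid response element.
Slco1c1, chr6:141524104-141524403, plus strand: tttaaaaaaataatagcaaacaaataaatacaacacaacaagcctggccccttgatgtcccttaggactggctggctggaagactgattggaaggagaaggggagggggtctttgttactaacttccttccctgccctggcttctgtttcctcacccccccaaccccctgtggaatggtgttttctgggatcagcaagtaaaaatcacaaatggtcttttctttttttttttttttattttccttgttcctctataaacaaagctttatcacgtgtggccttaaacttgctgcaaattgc
Mfsd2a, chr4:122961139-122961438, minus strand: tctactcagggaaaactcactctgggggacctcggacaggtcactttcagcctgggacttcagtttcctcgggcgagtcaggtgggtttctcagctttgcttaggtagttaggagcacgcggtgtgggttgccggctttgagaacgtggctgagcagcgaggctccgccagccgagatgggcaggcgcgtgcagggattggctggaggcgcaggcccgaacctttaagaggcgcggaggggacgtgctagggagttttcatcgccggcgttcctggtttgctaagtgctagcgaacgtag
Abcb1a, chr5:8566841-8567140, plus strand: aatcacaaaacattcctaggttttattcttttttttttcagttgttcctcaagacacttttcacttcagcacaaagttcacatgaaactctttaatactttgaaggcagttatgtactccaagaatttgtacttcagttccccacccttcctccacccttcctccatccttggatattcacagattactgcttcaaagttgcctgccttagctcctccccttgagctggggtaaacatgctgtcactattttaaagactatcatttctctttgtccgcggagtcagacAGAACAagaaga
The full element was searched as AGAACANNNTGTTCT, which reads the same on both strands, and the hexamer as AGAACA or TGTTCT, one being the other on the opposite strand. The full element was in 0 of the 11 promoters and in 3 of all 32851 RefSeq mouse promoters of this length (0.00913%). The hexamer was in 1 of the 11, against 19.0% of all promoters. It lay in Abcb1a 38 bases downstream of the annotated first base, while the 300 bases of Slco1c1 and Mfsd2a held neither motif. A match of letters is a description of the window and is neither a binding site nor a cause of any change.

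Values are log2 signals, and no value of 1 probe set is set against another's, apart from the mean signals of Cldn5, Ocln and Pecam1 below. For every probe set the deposited values had equal means in replicates 1 to 3 of all groups (12 arrays) and in replicates 4 and 5 (8 arrays), so they had been centred within these 2 array sets. The labels name no such sets. All 4 groups are equally represented in both, and results are given over all arrays and within each set. Scatter between replicates was wider in the second set, with a median SD per gene of 0.373 in replicates 4 and 5, against 0.212 in replicates 1 to 3. Cx30GRko Dex replicates 4 and 5 stood apart by the spread of their signals over probe sets (SD 1.95 and 1.81), which lay between 1.66 and 1.71 on the remaining 6 arrays of replicates 4 and 5. Nr3c1, the receptor's gene, differed by 0.37 ± 0.26 between Cx30GRko and control arrays under Dex and by -0.02 ± 0.26 under saline (log2 ± SE, n = 5 each, limma adjusted p = 0.6 and 0.995), so its probe set showed no loss. Where the probes lie relative to the removed exons is not known here. Probe sets were present for 14 of 14 neuron, 9 of 10 oligodendrocyte, 18 of 18 astrocyte and 23 of 25 endothelial markers, but every probe set returns a value and no detection call was used, so the tissue label was not checked by them.

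Over all 20 arrays, none of the 9 genes was called for Dex in either genotype, and the largest values were those of Mfsd2a, Slco1c1, Slco1a4 and Tjp1. Within replicates 1 to 3, where replicates were closer, Dex raised Mfsd2a 1.40-fold and lowered Slco1c1 to 0.671 of its saline level when both genotypes were averaged. In replicates 4 and 5 neither was called, with log2 differences of 0.64 for Mfsd2a and 0.47, the opposite sign, for Slco1c1. Over all arrays Slco1c1 stood at -0.16. The junction genes Cldn5, Ocln and Pecam1 had Dex differences of under 0.25 log2 in size in that average in both sets of arrays. Calls are genes with a Benjamini-Hochberg adjusted p under 0.05 over all 22180 genes in limma.

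**Figure D1:**
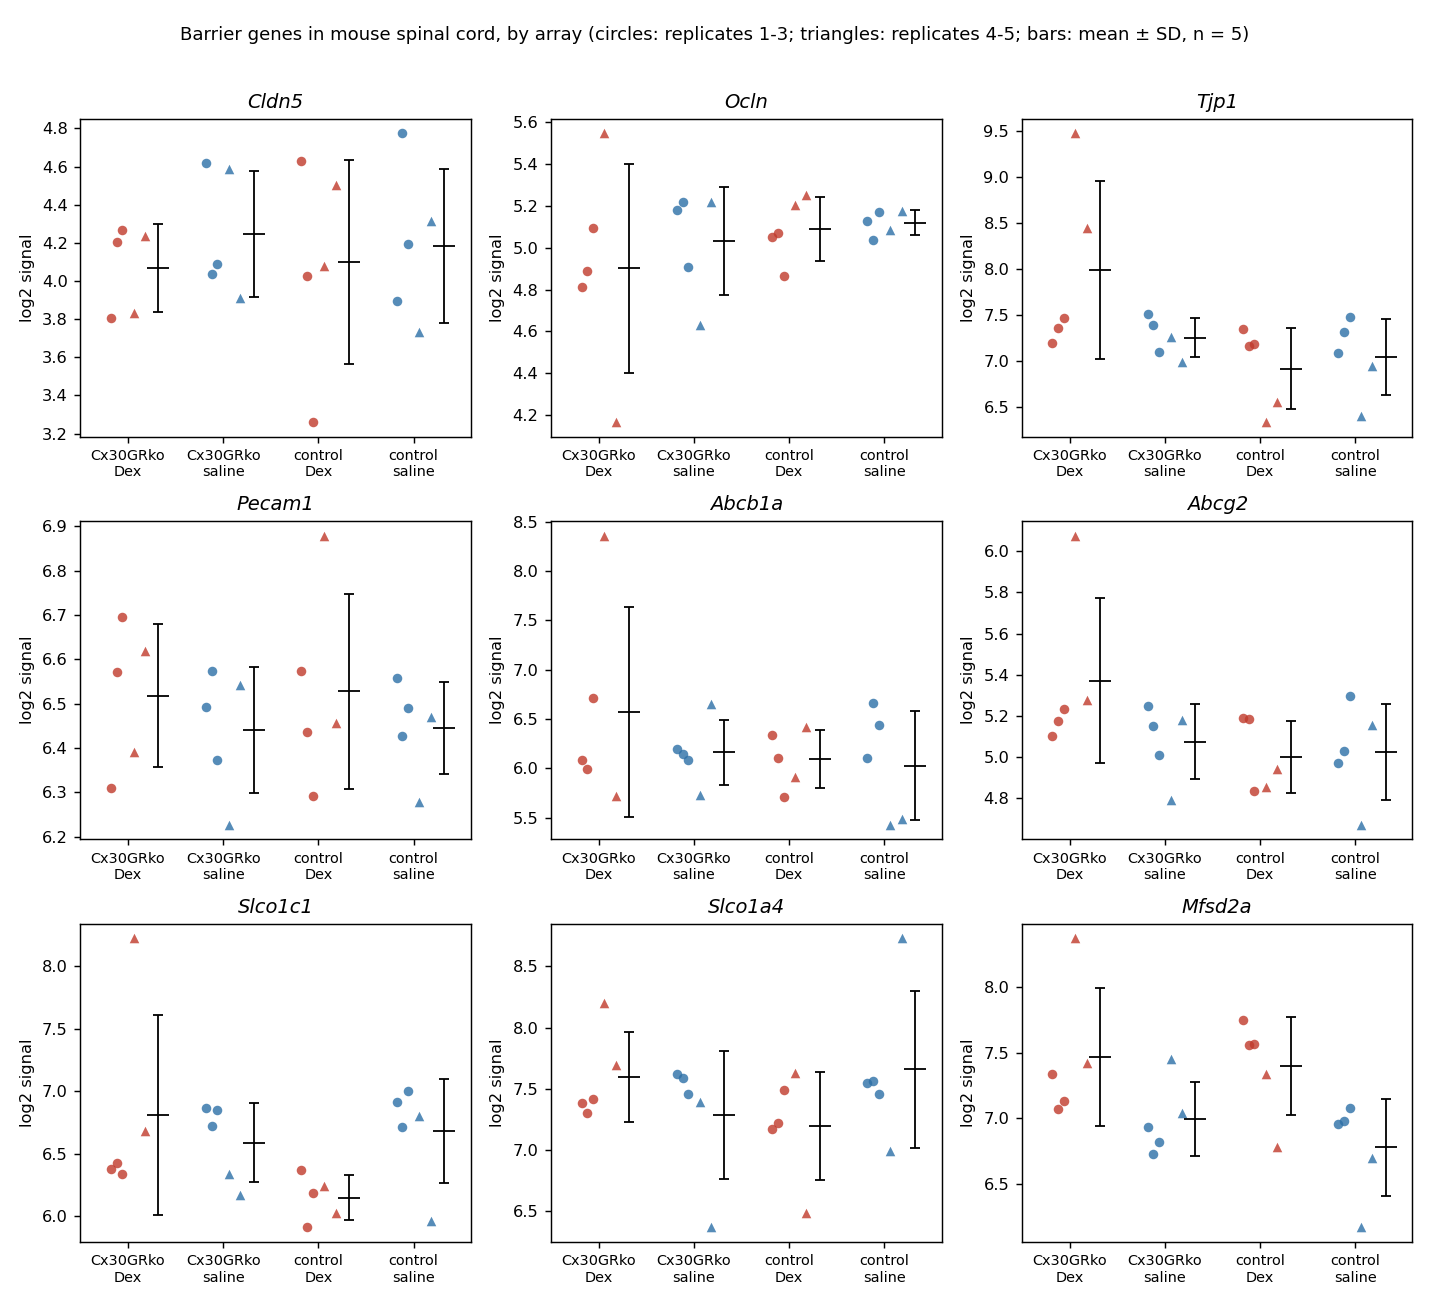
Log2 signal of each of the 9 barrier genes on each array (vertical axes, scaled gene by gene) in the 4 groups, with circles for replicates 1 to 3, triangles for replicates 4 and 5, and bars for the mean ± SD of 5 arrays. The Cx30GRko Dex triangles of Tjp1 (9.48 and 8.45) lie above every other array, and the circles of Slco1c1 and Mfsd2a separate Dex from saline in both genotypes.

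Mfsd2a was the gene that moved most evenly with Dex. Its log2 signals in replicates 1 to 5 were 7.34, 7.07, 7.13, 8.38 and 7.42 in Cx30GRko Dex arrays, against 6.93, 6.72, 6.82, 7.45 and 7.04 in Cx30GRko saline arrays. In control mice they were 7.75, 7.56, 7.57, 7.34 and 6.78 in Dex arrays, against 6.96, 6.98, 7.08, 6.17 and 6.70 in saline arrays. All 10 Dex arrays were above the mean of the saline arrays of their own genotype and array set, as was the case for 0.857% of all genes. The full ranges of Dex and saline overlapped in both genotypes, through Cx30GRko saline replicate 4 and control Dex replicate 5. None of the 9 genes had groups without overlap for Dex in Cx30GRko mice or in control mice, as 1.53% and 1.24% of all genes did. The mean of both Dex effects was 0.55 ± 0.17 log2 (95% interval 0.20 to 0.90, limma, unadjusted p = 0.00357), a 1.46-fold difference, which the adjustment over all genes did not pass (adjusted p = 0.359). By genotype the Dex difference of Mfsd2a was 0.47 ± 0.24 in Cx30GRko mice (adjusted p = 0.52) and 0.62 ± 0.24 in control mice (adjusted p = 0.851).

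Within replicates 1 to 3 Mfsd2a rose by 0.49 ± 0.08 log2 in the average of both genotypes (95% interval 0.31 to 0.66, limma adjusted p = 0.0211). In both genotypes all Dex arrays of these replicates were above all saline arrays, which held for 1% of all genes. The differences were 0.36 ± 0.11 in Cx30GRko mice (adjusted p = 0.668) and 0.62 ± 0.11 in control mice (adjusted p = 0.0677), and neither was called alone. For Dex within one genotype these replicates gave 0 calls among the 9 genes, beside 0.0316% of all genes in Cx30GRko mice and 0.171% in control mice. In replicates 4 and 5 the average was 0.64 ± 0.29 (adjusted p = 0.52). The effect in replicates 4 and 5 minus that in replicates 1 to 3 was 0.15 ± 0.26 (limma adjusted p = 0.844), so the sets were not shown to differ for Mfsd2a. That fit used 1 estimate of the spread for both sets. The SD of Mfsd2a was 0.46 in replicates 4 and 5 and 0.11 in replicates 1 to 3, so this SE is likely too small. The call in replicates 1 to 3 was lost when any 1 of 6 arrays was left out. These were Cx30GRko Dex replicate 1 (adjusted p = 0.0514), Cx30GRko saline replicate 2 (0.0728), control Dex replicates 1 (0.0628) and 2 (0.0507), and control saline replicates 1 (0.0691) and 2 (0.0609).

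Slco1c1 had lower signals under Dex in replicates 1 to 3 of both genotypes. Its log2 signals in replicates 1 to 5 were 6.38, 6.42, 6.34, 8.22 and 6.68 in Cx30GRko Dex arrays, against 6.87, 6.73, 6.85, 6.34 and 6.17 in Cx30GRko saline arrays. In control mice they were 6.37, 5.91, 6.19, 6.25 and 6.03 in Dex arrays, against 6.92, 6.71, 7.00, 6.81 and 5.97 in saline arrays. Among the first 3 replicates the 6 Dex arrays lay between 5.91 and 6.42 and the 6 saline arrays between 6.71 and 7.00. Dex arrays lay below all saline arrays in both genotypes there, which held for 0.433% of all genes. Slco1c1 fell by 0.58 ± 0.09 log2 there in the average of both genotypes (95% interval -0.78 to -0.37, limma adjusted p = 0.017). The differences were -0.43 ± 0.13 in Cx30GRko mice (adjusted p = 0.653) and -0.72 ± 0.13 in control mice (adjusted p = 0.0644). The interaction, the Dex effect in Cx30GRko mice minus that in control mice, was 0.29 ± 0.18 (adjusted p = 0.922). Slco1c1 lost its call on leaving out any 1 of 3 saline arrays, Cx30GRko replicate 1 (adjusted p = 0.0562), control replicate 1 (0.0588) or control replicate 3 (0.0551).

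Replicates 4 and 5 did not repeat this for Slco1c1. There the Dex difference was 1.20 ± 0.52 in Cx30GRko mice (adjusted p = 0.384) and -0.25 ± 0.52 in control mice, with Cx30GRko Dex replicate 4 at 8.22, far above every other array. The average over both genotypes was 0.47 ± 0.37 (adjusted p = 0.743). The effect in replicates 4 and 5 minus that in replicates 1 to 3 was 1.05 ± 0.32 (unadjusted p = 0.00445, adjusted p = 0.101). That test called 0 of the 9 genes and 479 of 22180 genes (2.16%), and at an unadjusted p under 0.05 it had 2 of the 9, Slco1c1 and Tjp1, beside 15.8% of all genes. It used 1 estimate of the spread for both sets, though the SD of Slco1c1 was 0.63 in replicates 4 and 5 and 0.14 in replicates 1 to 3. Its SE of 0.32 is below the 0.37 of replicates 4 and 5 alone. Its p-values are therefore likely too small, and its counts too high, where replicates 4 and 5 scatter more. Over all 20 arrays the Dex difference of Slco1c1 was 0.22 ± 0.28 in Cx30GRko mice and -0.53 ± 0.28 in control mice (adjusted p = 0.814 and 0.942), although all 5 control Dex arrays lay below the saline mean of their set, as they did for 6.21% of genes.

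**Figure D2:**
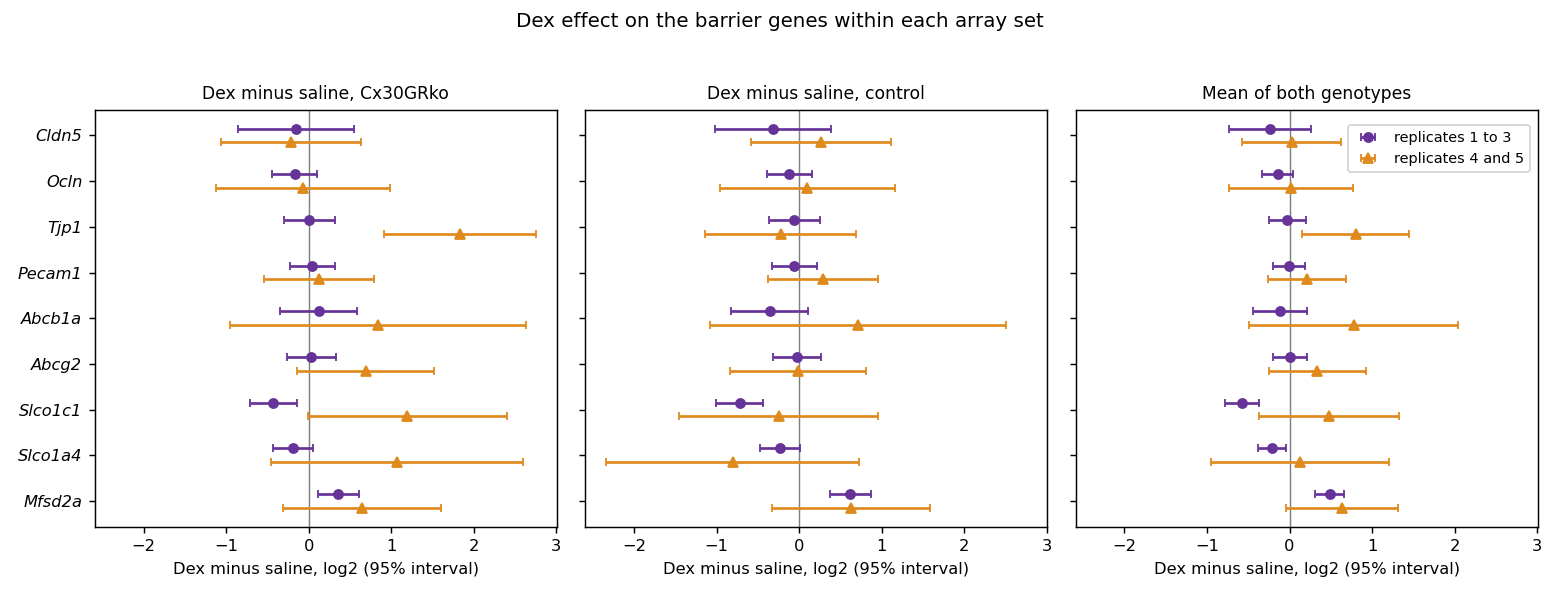
Dex minus saline difference (horizontal axes, log2) of the 9 genes in Cx30GRko mice, in control mice and averaged over both, with the limma estimate and its 95% interval in replicates 1 to 3 (circles) and in replicates 4 and 5 (triangles). The intervals of replicates 4 and 5 are wider for every gene in the average, and in that average Mfsd2a lies right of 0 in both sets whereas Slco1c1 is at -0.58 in one and 0.47 in the other.

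Slco1a4 had a smaller average Dex difference than Slco1c1 in replicates 1 to 3, and wider scatter elsewhere. Its log2 signals in replicates 1 to 5 were 7.38, 7.30, 7.41, 8.20 and 7.69 in Cx30GRko Dex arrays, against 7.62, 7.59, 7.46, 7.39 and 6.37 in Cx30GRko saline arrays. In control mice they were 7.17, 7.22, 7.49, 7.63 and 6.48 in Dex arrays, against 7.55, 7.56, 7.46, 6.99 and 8.73 in saline arrays. Groups of 5 arrays overlapped in both genotypes, and replicate 5 of both saline groups lay far from the others, low in Cx30GRko and high in control mice. Within replicates 1 to 3 of Cx30GRko mice, Dex arrays (7.30 to 7.41) lay below all saline arrays (7.46 to 7.62). In control mice these replicates overlapped. The share of all genes without overlap in Cx30GRko mice alone is not given here. The average Dex difference of replicates 1 to 3 was -0.21 ± 0.08 (unadjusted p = 0.0211, limma adjusted p = 0.554). Over all arrays it was 0.31 ± 0.29 in Cx30GRko mice and -0.46 ± 0.29 in control mice (adjusted p = 0.73 and 0.942). All 5 control Dex arrays and 3 of 5 Cx30GRko Dex arrays lay below the saline mean of their genotype and set, the same counts as for Slco1c1.

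Tjp1 had high signals on a pair of Cx30GRko Dex arrays and overlapping values elsewhere. Its log2 signals in replicates 1 to 5 were 7.20, 7.36, 7.47, 9.48 and 8.45 in Cx30GRko Dex arrays, against 7.52, 7.40, 7.10, 7.27 and 7.00 in Cx30GRko saline arrays. In control mice they were 7.35, 7.17, 7.19, 6.34 and 6.56 in Dex arrays, against 7.09, 7.32, 7.48, 6.40 and 6.95 in saline arrays. These high values were on Cx30GRko Dex replicates 4 and 5, the arrays that stood apart. In Cx30GRko mice the Dex difference of Tjp1 was 0.74 ± 0.33 over all arrays (unadjusted p = 0.0355, limma adjusted p = 0.494), with 0.01 ± 0.14 in replicates 1 to 3 and 1.83 ± 0.39 in replicates 4 and 5 (adjusted p = 0.998 and 0.207). In control mice it was -0.13 ± 0.33. The average Dex effect in replicates 4 and 5 minus that in replicates 1 to 3 was 0.83 ± 0.26 (limma, unadjusted p = 0.00502, adjusted p = 0.106). These p-values are likely too small, as for Slco1c1. The SD of Tjp1 was 0.43 in replicates 4 and 5 and 0.17 in replicates 1 to 3.

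The other junction and adhesion genes had small Dex differences. Cldn5 averaged 4.07 ± 0.23 in Cx30GRko Dex arrays and 4.25 ± 0.33 in Cx30GRko saline arrays, and 4.10 ± 0.54 in control Dex arrays and 4.18 ± 0.40 in control saline arrays (log2 signal, SD, n = 5). Ocln averaged 4.90 ± 0.50 in Cx30GRko Dex arrays and 5.03 ± 0.26 in Cx30GRko saline arrays, and 5.09 ± 0.15 in control Dex arrays and 5.12 ± 0.06 in control saline arrays. Ocln was lowest, at 4.17, and highest, at 5.55, in the same group, Cx30GRko Dex. Pecam1 averaged 6.52 ± 0.16 in Cx30GRko Dex arrays and 6.44 ± 0.14 in Cx30GRko saline arrays, and 6.53 ± 0.22 in control Dex arrays and 6.44 ± 0.10 in control saline arrays. The 95% intervals of the average Dex effect ran from -0.47 to 0.21 for Cldn5, from -0.35 to 0.19 for Ocln and from -0.11 to 0.27 for Pecam1 (limma, all 20 arrays). A rise of 1 log2 unit in signal lies outside all 3 intervals, while smaller changes inside them could not be detected. The mean log2 signal over 20 arrays was 4.15 for Cldn5, 5.03 for Ocln and 6.48 for Pecam1, beside a median of 4.68 for all genes. No detection call was used here, so a part of these signals that is background could not be separated. The intervals therefore hold for signal and not for transcript amount.

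The efflux pumps also had overlapping groups. Abcb1a ranged from 5.72 to 8.36 in Cx30GRko Dex arrays, with a median of 6.08, and from 5.73 to 6.66 in Cx30GRko saline arrays. It ranged from 5.71 to 6.42 in control Dex arrays and from 5.43 to 6.66 in control saline arrays. Its Dex difference was 0.41 ± 0.36 in Cx30GRko mice and 0.07 ± 0.36 in control mice (limma adjusted p = 0.708 and 0.997). Abcg2 read 5.10, 5.17, 5.23, 6.08 and 5.28 in Cx30GRko Dex arrays, against 5.25, 5.15, 5.01, 4.79 and 5.18 in Cx30GRko saline arrays. In control mice Abcg2 ranged from 4.83 to 5.19 in Dex arrays and from 4.67 to 5.30 in saline arrays. Its Dex difference was 0.30 ± 0.17 in Cx30GRko mice and -0.02 ± 0.17 in control mice (adjusted p = 0.561 and 0.998). For both pumps the highest value of all 20 arrays was on Cx30GRko Dex replicate 4.

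In all 6 comparisons over the 20 arrays limma called 0 of the 9 genes. For Dex against saline in Cx30GRko mice it called 4 of all 22180 genes (0.018%), and at an unadjusted p under 0.05 it had 1 of the 9, Tjp1, beside 9.73% of all genes. For Dex in control mice it called 3 of all genes (0.0135%), and Mfsd2a was the 1 of 9 at an unadjusted p under 0.05, beside 5.16% of all genes. For the average of both Dex effects it called 33 of all genes (0.149%), with Mfsd2a again the 1 of 9 at an unadjusted p under 0.05, beside 8.64%. The 2 comparisons by genotype contribute to that average, so these counts are not independent. The median Dex difference of the 9 was 0.30 in Cx30GRko mice, with 7 of 9 higher, beside 0.02 and 53.7% higher for all genes. In control mice it was -0.03, with 3 of 9 higher, beside 0.01 and 52.3% for all genes.

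The sets of arrays differed in these medians. The average Dex effect in replicates 1 to 3 called 101 of all genes (0.455%) and 2 of the 9, Mfsd2a higher and Slco1c1 lower. At an unadjusted p under 0.05 it had 3 of the 9, with Slco1a4 as the third, beside 7.36% of all genes. The median of the 9 was -0.12 there, with 7 of 9 lower, while all genes had a median of 3e-04 and 49.9% lower. In replicates 4 and 5 it called 0 of all genes, 10% had an unadjusted p under 0.05, and of the 9 genes that was Tjp1 alone. The median of the 9 was 0.34 there, with 9 of 9 higher, beside 0.04 for all genes.

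The second question was whether loss of the receptor in connexin 30 cells changed the barrier genes. Under saline it called 0 of all genes and 0 of the 9, with 0 of 9 at an unadjusted p under 0.05 beside 5.25% of all genes. None of the 9 had groups without overlap over 5 arrays, as 0.938% of all genes did. The largest difference, Cx30GRko minus control, was that of Slco1a4 at -0.37 ± 0.29 (limma adjusted p = 0.915), with -0.98 ± 0.66 in replicates 4 and 5 and 0.03 ± 0.11 in replicates 1 to 3. Mfsd2a stood at 0.22 ± 0.24 over all arrays, with -0.18 ± 0.11 in replicates 1 to 3 and 0.81 ± 0.41 in replicates 4 and 5 (adjusted p = 0.889 and 0.933). Its signals in replicates 1 to 3 under saline were 6.72 to 6.93 in Cx30GRko and 6.96 to 7.08 in control mice, without overlap, as was so for 10.2% of all genes. Tjp1 stood at 0.21 ± 0.33 and the other 6 genes at under 0.14 in size.

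**Figure D3:**
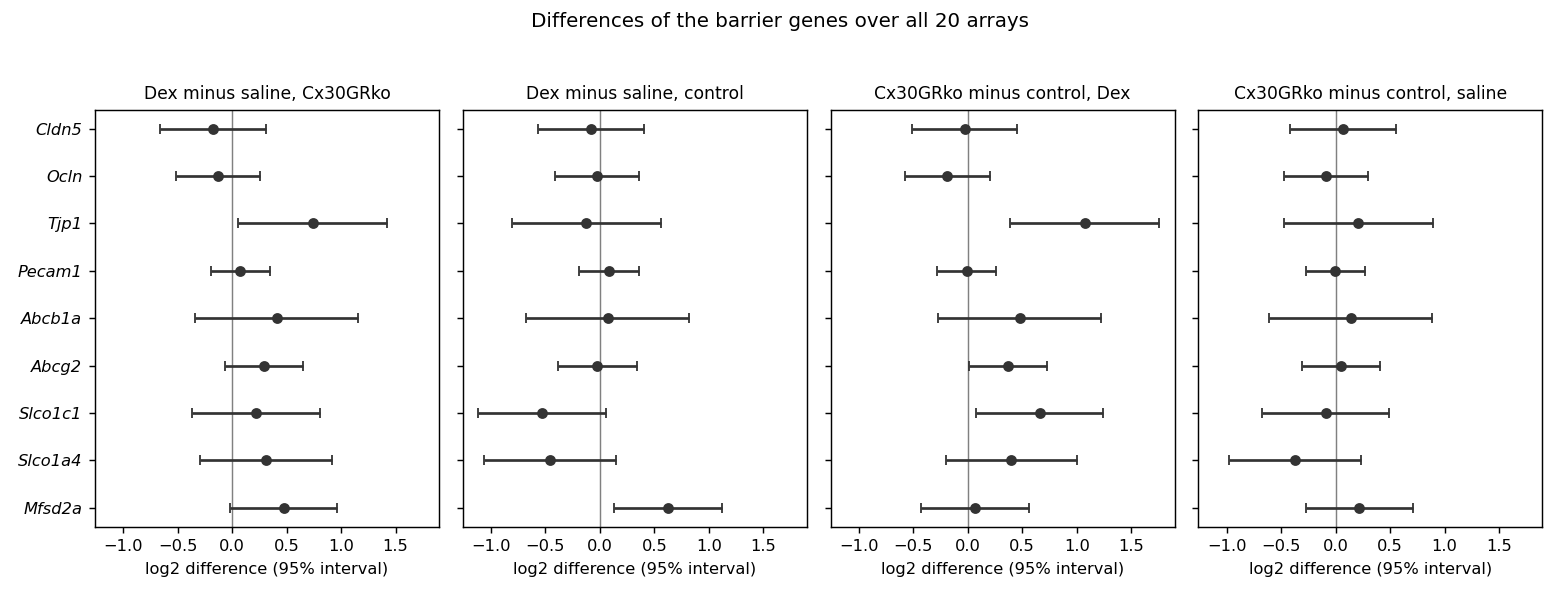
Log2 differences of the 9 genes (horizontal axes, limma estimate and 95% interval over 20 arrays) for Dex against saline in each genotype and for Cx30GRko against control under each treatment. Only Mfsd2a in control mice and Tjp1 in Cx30GRko mice have Dex intervals that leave out 0, and Tjp1, Slco1c1 and Abcg2 do so for genotype under Dex.

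Under Dex limma again called 0 of all genes for genotype, but 3 of the 9 had an unadjusted p under 0.05, beside 11.2% of all genes. None of the 9 had groups without overlap, as 1.28% of all genes did. Tjp1 averaged 7.99 ± 0.96 in Cx30GRko Dex arrays and 6.92 ± 0.44 in control Dex arrays (SD, n = 5), a difference of 1.07 ± 0.33 (unadjusted p = 0.00366, adjusted p = 0.423). Slco1c1 averaged 6.81 ± 0.80 in Cx30GRko Dex arrays and 6.15 ± 0.18 in control Dex arrays (0.66 ± 0.28, adjusted p = 0.428), and Abcg2 averaged 5.37 ± 0.40 in Cx30GRko Dex arrays and 5.00 ± 0.18 in control Dex arrays (0.37 ± 0.17, adjusted p = 0.44). All 3 differences were small in replicates 1 to 3, with 0.11 ± 0.14 for Tjp1, 0.22 ± 0.13 for Slco1c1 and 0.10 ± 0.13 for Abcg2, and large in replicates 4 and 5, with 2.51 ± 0.39, 1.31 ± 0.52 and 0.78 ± 0.36. Without Cx30GRko Dex replicates 4 and 5 they were 0.43, 0.23 and 0.17 (adjusted p = 1 each). The centring had included this pair, so high values there lowered the other arrays of replicates 4 and 5. Control Dex replicates 4 and 5 were kept, with a Tjp1 mean of 6.45 against 7.24 in replicates 1 to 3. These differences therefore do not remove the pair's part in full. Mfsd2a had the opposite sign in the 2 sets, at -0.45 ± 0.11 in replicates 1 to 3 (unadjusted p = 0.00211, adjusted p = 0.935) and 0.84 ± 0.41 in replicates 4 and 5 (adjusted p = 0.413). The Mfsd2a values of replicates 1 to 3 under Dex were 7.07 to 7.34 in Cx30GRko and 7.56 to 7.75 in control mice. They did not overlap, as was so for 9.44% of all genes, and lay in the same direction as those under saline.

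The interaction asks whether Dex acted differently in the 2 genotypes. It called 0 of all genes and 0 of the 9, none of which had an unadjusted p under 0.05, beside 5.65% of all genes. The largest interactions were 0.86 ± 0.47 for Tjp1, 0.77 ± 0.41 for Slco1a4 and 0.75 ± 0.40 for Slco1c1 (limma adjusted p = 0.846 each). Within replicates 1 to 3 they were 0.07, 0.04 and 0.29, and in replicates 4 and 5 they were 2.05, 1.87 and 1.44. For Mfsd2a the interaction was -0.15 ± 0.34, with a 95% interval from -0.85 to 0.55, so a difference between genotypes as large as the Dex effect itself was neither shown nor left out by the data.

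Markers of some other cell types were high on some Cx30GRko Dex arrays. The mean of 18 astrocyte markers, as a deviation from their mean over all arrays, ranged from -0.04 to 0.763 in Cx30GRko Dex arrays, from -0.196 to 0.044 in Cx30GRko saline arrays, from -0.315 to 0.059 in control Dex arrays and from -0.303 to -0.014 in control saline arrays. Oligodendrocyte markers reached 0.901 and neuron markers 0.583 in the Cx30GRko Dex group. The mean of the 9 barrier genes reached 1.00 there as well, against 0.11 in the control Dex group. All these maxima were on Cx30GRko Dex replicate 4. On that array Schwann cell markers stood at 0.795, meningeal at 0.541 and endothelial at 0.165. Mural markers stood at 0.039, microglial at -0.051, and platelet and leukocyte markers at -0.286. This array also had the widest spread of signals over probe sets (SD 1.95). The part of that spread in these values was not tested. The part of Cx30GRko Dex replicates 4 and 5 in the Tjp1, Slco1c1 and Abcg2 differences was looked at only by leaving them out. As given above, that does not undo the centring. In whole cord, fewer cells of a type and less RNA per cell cannot be told apart.

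Several marker lists were also lower with Dex in control mice in replicates 1 to 3, where Slco1c1 was lower. There 12 of 13 markers of meningeal fibroblasts were lower, with a median difference of -0.67, and 6 of 6 of Schwann cells, with a median of -0.59. Of microglia 7 of 9 were lower, with a median of -0.37, and of oligodendrocytes 8 of 9, with a median of -0.18. All genes had a median of 0.01 and 48.1% lower, and none of these markers was called. In Cx30GRko mice the same replicates had medians of 0.22, 0.13, 0.12 and 0.0055 for these lists of meningeal, Schwann, microglial and oligodendrocyte markers. Mean deviations of the microglial markers were -0.301 to -0.030 in control Dex arrays, below all control saline arrays at 0.037 to 0.187, and those of the oligodendrocyte markers were -0.230 to 0.008 in control Dex arrays and 0.087 to 0.287 in control saline arrays. Those of the meningeal markers overlapped, at -0.875 to 0.227 in control Dex arrays and -0.168 to 0.668 in control saline arrays, and spanned -0.933 to 0.850 over all 20 arrays. In these replicates of control mice the astrocyte markers had higher mean deviations with Dex. They stood at 0.02 to 0.0587 in Dex arrays and -0.0945 to -0.0144 in saline arrays. Choroid plexus and ependymal markers were also higher, at -0.0692 to 0.0958 in Dex arrays and -0.1095 to -0.0808 in saline arrays. The share of all genes without overlap for Dex in these arrays is not given here. For genotype in replicates 1 to 3 it was 9.44% under Dex and 10.2% under saline. The part of any of these markers in the Slco1c1 and Mfsd2a differences was not tested.

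The endothelial markers, 23 measured genes that exclude the 9, had overlapping ranges under Dex and saline over 5 arrays in both genotypes, but not in replicates 1 to 3 of control mice. Their mean deviation ranged from -0.207 to 0.165 in Cx30GRko Dex arrays, from -0.164 to 0.126 in Cx30GRko saline arrays, from -0.225 to 0.078 in control Dex arrays and from 0.007 to 0.155 in control saline arrays. Within replicates 1 to 3 of control mice it was -0.225 to -0.030 in Dex arrays, below all saline arrays at 0.045 to 0.155. The share of all genes without overlap for Dex in these arrays is not given here. For genotype in replicates 1 to 3 it was 9.44% under Dex and 10.2% under saline. The median Dex difference of the 23 in these replicates was 0.04 in Cx30GRko mice, with 11 lower, and -0.16 in control mice, with 15 lower, while Slco1c1 stood at -0.43 and -0.72 and Mfsd2a at 0.36 and 0.62 in these genotypes. Summed over the markers, the log2 levels were 116.5 to 125.1 in Cx30GRko Dex arrays, 117.5 to 124.2 in Cx30GRko saline arrays, 116.1 to 123.1 in control Dex arrays and 121.5 to 124.9 in control saline arrays. In the average of both genotypes within replicates 1 to 3, 0.455% of all genes were called. Of the 23 markers, none was called higher with Dex and 2 were called lower. They were the angiopoietin receptor gene Tek, at -0.96 ± 0.13 (limma adjusted p = 0.00752), and the vascular endothelial growth factor receptor gene Kdr, at -0.95 ± 0.18 (adjusted p = 0.0427). The median of the 23 was -0.07, with 15 lower. In replicates 4 and 5 Tek stood at 0.37 ± 0.19 and Kdr at 0.22 ± 0.26, with adjusted p of 0.573 and 0.855. With the mean of the 23 markers as a covariate, the Dex differences in replicates 1 to 3 were -0.60 for Slco1c1 and 0.46 for Mfsd2a. Without it they were -0.58 and 0.49, and with it neither was called (limma adjusted p = 0.0712 and 0.108). The 23 include Tek and Kdr, called lower with Dex in these arrays. The fit therefore cannot decide how much of either difference goes with endothelial content.

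**Figure D4:**
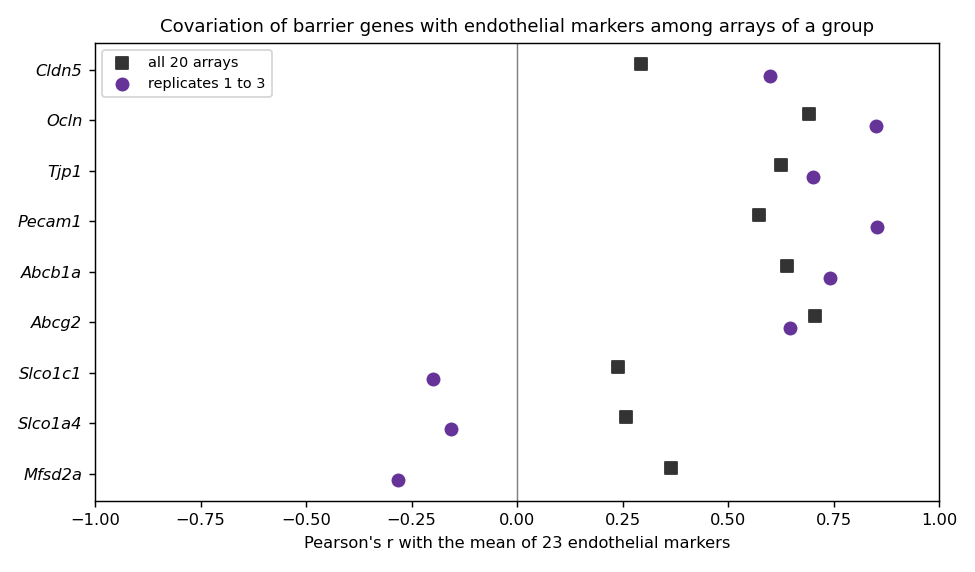
Pearson's r (horizontal axis) between each of the 9 genes and the mean of 23 endothelial markers across arrays, both taken as deviations from the mean of their group and array set, over all 20 arrays (squares) and over replicates 1 to 3 (circles). Junction genes and pumps lie right of 0 in both, while Slco1c1, Slco1a4 and Mfsd2a lie between -0.28 and -0.16 in replicates 1 to 3.

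Among arrays of the same group and set, Ocln and Abcg2 varied with the endothelial markers over all 20 arrays, and the other 7 genes did not pass this test. The test of each relation permuted the arrays within group and set (exact permutation test, two-sided), and p-values were adjusted over the 9 genes by the Benjamini-Hochberg method. Over 20 arrays Pearson's r was 0.69 for Ocln and 0.71 for Abcg2 (exact permutation p = 0.0026 and 0.00395, adjusted p = 0.0178 each), with Spearman's rho of 0.777 and 0.684 (adjusted p = 0.0245 each). The other 7 had r between 0.24 and 0.64. The 2 arrays farthest from the median of the marker mean were Cx30GRko Dex replicates 1 and 5. Without them r was 0.66 for Ocln, 0.69 for Abcg2 and 0.63 for Pecam1 (adjusted exact permutation p = 0.0477 each). The deviations were not taken anew after these were left out. Cx30GRko Dex replicate 5 is 1 of 2 arrays of its group and set, whose deviations are equal in size and opposite in sign. The array that was kept still carried its deviation, so this check cannot remove the part of that pair.

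Over the 12 arrays of replicates 1 to 3, r was 0.85 for Ocln, 0.85 for Pecam1, 0.74 for Abcb1a, 0.70 for Tjp1 and 0.65 for Abcg2 (adjusted exact permutation p = 0.0417 each), and 0.60 for Cldn5 (0.059). By Spearman's rho none of these passed, with adjusted p from 0.0625 for Ocln. The carriers had r of -0.20 for Slco1c1, -0.16 for Slco1a4 and -0.28 for Mfsd2a in the same arrays (adjusted p = 0.633, 0.67 and 0.633). In replicates 4 and 5 the smallest p that 16 permutations allow is 0.125, so no relation could pass there, and the values ran from -0.45 for Cldn5 to 0.88 for Abcg2. Each point is 1 array, so the genes it relates share that array's whole distribution of signals.

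Outside the 9 genes, barrier genes of the same kinds were followed with Dex in the average of both genotypes. Of 33 measured pumps and carriers, 1 was called higher over all 20 arrays, beside 0.149% of all genes called. This was Slc2a1, the gene of the glucose transporter GLUT1 of barrier endothelium and astrocytes, at 0.73 ± 0.14 (limma adjusted p = 0.0285). Slc2a1 had 2 probe sets, and its values are those of the one with the higher mean. The other is not described here. Within replicates 1 to 3, 2 of the 33 were called higher, beside 0.455% of all genes called. Slc2a1 rose by 0.58 ± 0.07 (limma adjusted p = 0.0049) and Abcc4, an efflux pump of organic anions, by 0.56 ± 0.09 (adjusted p = 0.0211). Slc2a1 stood at 0.97 ± 0.29 in replicates 4 and 5 (adjusted p = 0.373) and Abcc4 at -0.01 ± 0.34. The median of the 33 was near 0 in both, at 0.00 over all arrays and -0.03 in replicates 1 to 3.

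Of 24 other junction genes, which include the claudins Cldn1, Cldn3 and Cldn12, the cadherin gene Cdh5 and the adhesion gene Esam, none was called over all arrays or in either set. Their median Dex effect was 0.03 over all arrays, and 1 of the 24 had an unadjusted p under 0.05, beside 8.64% of all genes. None of 10 transcytosis genes was called, and their member with the smallest p was Plvap, the gene of the diaphragm of fenestrated vessels, at 0.52 ± 0.16 (limma, unadjusted p = 0.00371, adjusted p = 0.359). None of 19 genes of the Wnt pathway that maintains the barrier was called, where the receptor gene Fzd4 stood at 0.41 ± 0.11 (adjusted p = 0.219). None of 13 endothelial activation genes was called. For comparison with genes known to respond to the receptor, 12 of 12 response genes had higher estimates with Dex over all arrays. Of these 6 were called, beside 0.149% of all genes. In replicates 1 to 3, 9 of 12 were called higher, beside 0.455% of all genes called. There Cdkn1a rose by 1.29 ± 0.11, Fkbp5 by 1.18 ± 0.12 and Sgk1 by 1.10 ± 0.18 (limma adjusted p = 0.000227, 0.000973 and 0.0192).

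The genes whose pattern among arrays was most like each barrier gene were named by Pearson's r over 20 deviations from the mean of group and set, as a description with no test. They were Camsap2 for Slco1c1 (0.975, and 0.967 in replicates 1 to 3), Gmfb for Tjp1 (0.932 and 0.950), Vcl for Pecam1 (0.882 and 0.872) and Tns2 for Cldn5 (0.844 and 0.856). For the other 5 the leading gene had an r of 0.804 or less in replicates 1 to 3. It was Nedd4 for Ocln (0.969 and 0.773), Vcp for Abcg2 (0.937 and 0.804), Paqr6 for Mfsd2a (0.953 and 0.703), Atp6ap2 for Slco1a4 (0.986 and 0.686) and Tut4 for Abcb1a (0.933 and 0.577). Among the 9 genes themselves 28 of 36 pairs had a positive r, with a median of 0.25 over 20 arrays, and 25 of 36 in replicates 1 to 3, with a median of 0.26.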

How the data were processed

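RNA of 20 spinal cords was measured, 1 array each. The authors deposited 1 table of log2 values per probe set. The tool in the submitters' processing notes is oligo. For its version, the normalization, the build and the annotation there is no statement: not given in the sources used here. Every array had a mean of 4.64, and the largest difference between the means of the 2 array sets was 4.5e-09, against a median of 0.107 for a split within replicates 1 to 3. Of 41345 probe sets, 23521 had 1 symbol, 1814 several and 16010 none. The highest-mean probe set of each of 22180 genes was kept, which mattered for 1082 genes and for none of the 9, with no filter on dim probe sets.

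Group means were fitted to all 20 arrays with limma 3.58.1 in R 4.3.3 (16 residual and 5.66 prior degrees of freedom). The centring had used 1 further degree of freedom that this fit did not count. P-values are two-sided. Permutations used scipy 1.17.1 in Python 3.11.15. The design gives 5 mice per group, and the labels do not say whether replicates were processed together. Scripts were tested on simulated data. No array was left out. The precision is limited by the number of arrays.

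The genes, the lists and the rule for naming genes were chosen with earlier results of these data known. The rule names the 9 genes, the called genes of each list discussed with up to 3 more of the smallest p, the most similar genes, and Cdkn1a, Sgk1 and Fkbp5. The claudins, Cdh5 and Esam were named to describe their list. Same-numbered arrays of different groups had deviations that correlated between -0.254 and 0.037, so the numbers did not pair them. Alternatives were quantile and cyclic loess normalization, other choices of probe set, a filter on dim genes, blocks for array set and replicate number, array weights, each array set alone, the compared groups alone, an endothelial covariate and leaving out arrays.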

Additional observations from a re-analysis of the deposited data

Results flagged for a closer look

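Each of the 9 genes was looked at in each of the 4 groups of 5 arrays for an array far from the rest, measured as its gap to the nearest other array over the range of the group, with a limit of 0.71. This picked out 5 of 36 groups, where chance picks about 1 in 20 if all arrays of a group vary alike. They did not, since the SD of Slco1c1 was 0.63 in replicates 4 and 5 and 0.14 in replicates 1 to 3, and that of Slco1a4 was 0.84 and 0.10 in these sets, so that rate does not hold here. Cx30GRko Dex replicate 4 was far above its group for Abcg2 (6.08), Slco1c1 (8.22) and Mfsd2a (8.38). Control saline replicate 5 was far below its group for Slco1c1 (5.97), and Cx30GRko saline replicate 5 was far below its group for Slco1a4 (6.37). All 5 belong to replicates 4 and 5, and 3 of them are the same array.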

How the results depend on the processing

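Arrays in replicates 4 and 5 vary more, the array sets are not in the labels, and the signal over background of a probe set is unknown. Over all arrays 0 of the 9 genes was called under every alternative run, except that the average Dex effect called 2 with replicates 1 to 3 alone. Those 2 calls held with a replicate block (adjusted p = 0.029 for Slco1c1 and 0.0372 for Mfsd2a), with array weights and with quantile normalization, and 0 were called with the endothelial covariate. Leaving out 1 of the 12 arrays gave 0 to 2 calls, with adjusted p between 0.0182 and 0.0588 for Slco1c1 and between 0.0366 and 0.0728 for Mfsd2a, and both calls were lost without control saline replicate 1. These checks of replicates 1 to 3 were chosen after seeing the data.

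The replicate block changed none of the calls among the 9 genes, and the median differences of the 9 under it were 0.30 for Dex in Cx30GRko mice and -0.03 for Dex in control mice, as without it. The numbers do not pair the arrays. Medians of the 9 depended on the array set. For Dex in Cx30GRko mice the median was 0.0091 with replicates 1 to 3 and 0.69 with replicates 4 and 5. For genotype under Dex it was 0.099 and 0.84, and between 0.029 and 0.44 with 1 array left out, lowest without Cx30GRko Dex replicate 4. The interaction median was 0.32, or 0.026 without Cx30GRko Dex replicates 4 and 5, -0.17 with the endothelial covariate, and 0.025 to 0.41 with 1 array left out. Leaving out arrays did not undo the centring that had included them. The number of genes related to the endothelial marker mean was 2 over all arrays, 5 in replicates 1 to 3, and 0 in replicates 4 and 5, where it could not pass. In replicates 1 to 3 r was -0.20 for Slco1c1, -0.16 for Slco1a4 and -0.28 for Mfsd2a, and in replicates 4 and 5 -0.45 for Cldn5, against positive values over all arrays. Calls among all genes were 4 for Dex in Cx30GRko mice (0 to 18 over the alternatives), 3 in control mice (0 to 58) and 33 for the average (0 to 129). They were 101 for the average in replicates 1 to 3 (49 to 111). Both interaction and genotype under saline had 0 calls, with 1 when a single array was left out.

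The signs below differ from those over the full data. None of these values was called, and the cause was not tested. With replicates 1 to 3 alone, for Dex in Cx30GRko mice, values were -0.43 for Slco1c1 and -0.19 for Slco1a4, and for Dex in control mice -0.058 for Pecam1 and -0.35 for Abcb1a. There, for the interaction, values were 0.16 for Cldn5 and 0.10 for Pecam1, and for genotype under saline -0.041 for Cldn5, -0.26 for Abcb1a, 0.034 for Slco1a4 and -0.18 for Mfsd2a. In that setting, for genotype under Dex, values were 0.12 for Cldn5, 0.091 for Pecam1 and -0.45 for Mfsd2a, and for the average Dex effect -0.025 for Tjp1, -0.0059 for Pecam1 and -0.12 for Abcb1a. With replicates 4 and 5 alone, for Dex in control mice, values were 0.27 for Cldn5 and 0.10 for Ocln, and for the interaction 0.024 for Mfsd2a. There, for genotype under saline, values were 0.0095 for Pecam1, and for the average Dex effect 0.028 for Cldn5, 0.015 for Ocln, 0.47 for Slco1c1 and 0.13 for Slco1a4. With array weights, for Dex in Cx30GRko mice, values were -0.21 for Slco1c1 and -0.018 for Slco1a4, and for Dex in control mice -0.20 for Abcb1a. There, for the interaction, values were 0.12 for Cldn5 and 0.044 for Pecam1, and for genotype under saline -0.038 for Cldn5, 0.0038 for Ocln, 0.015 for Pecam1, -0.096 for Abcb1a and -0.033 for Mfsd2a. In that setting, for genotype under Dex, values were 0.084 for Cldn5, 0.059 for Pecam1 and -0.29 for Mfsd2a, and for the average Dex effect -0.038 for Abcb1a. With the endothelial covariate, for Dex in control mice, values were 0.082 for Cldn5, 0.23 for Ocln, 0.092 for Tjp1 and 0.18 for Abcg2, and for the interaction -0.25 for Abcb1a. There, for genotype under saline, values were 0.14 for Ocln, 0.11 for Pecam1 and 0.091 for Slco1c1, and for the average Dex effect 0.023 for Ocln. In that setting, for the average Dex effect of replicates 1 to 3, values were 0.043 for Cldn5, 0.093 for Tjp1, 0.11 for Pecam1 and 0.10 for Abcb1a. With cyclic loess, for Dex in Cx30GRko mice, values were -0.024 for Pecam1, and for genotype under Dex -0.079 for Mfsd2a. Without Cx30GRko Dex replicates 4 and 5, for Dex in Cx30GRko mice, values were -0.21 for Slco1c1, and for the interaction 0.0013 for Pecam1. There, for genotype under Dex, values were -0.22 for Mfsd2a, and for the average Dex effect -0.017 for Tjp1. With quantile normalization, for genotype under Dex, values were 0.027 for Cldn5 and -0.15 for Mfsd2a, and for the average Dex effect of replicates 1 to 3 -0.0041 for Abcg2.

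With 1 array left out, values for Dex in Cx30GRko mice ran from -0.037 to 0.62 for Abcb1a, from -0.13 to 0.34 for Slco1c1 and from -0.29 to 0.054 for Ocln. For Dex in control mice they ran from -0.21 to 0.13 for Cldn5, from -0.11 to 0.045 for Abcg2, from -0.071 to 0.026 for Ocln, from -0.077 to 0.23 for Abcb1a, from -0.29 to 0.020 for Tjp1 and from -0.0051 to 0.14 for Pecam1. For the interaction they ran from -0.066 to 0.081 for Pecam1, from -0.31 to 0.036 for Cldn5, from -0.38 to 0.0036 for Mfsd2a, from -0.11 to 0.55 for Abcb1a and from -0.26 to 0.084 for Ocln. For genotype under saline they ran from -0.046 to 0.21 for Cldn5, from -0.045 to 0.050 for Pecam1, from -0.012 to 0.30 for Abcb1a, from -0.038 to 0.12 for Abcg2, from -0.13 to 0.012 for Ocln and from -0.27 to 0.014 for Slco1c1. For genotype under Dex they ran from -0.24 to 0.10 for Cldn5, from -0.069 to 0.078 for Pecam1 and from -0.16 to 0.17 for Mfsd2a. For the average Dex effect they ran from -0.19 to 0.059 for Slco1a4 and from -0.16 to 0.012 for Ocln. For the average Dex effect of replicates 1 to 3 they ran from -0.048 to 0.048 for Pecam1, from -0.030 to 0.061 for Abcg2 and from -0.084 to 0.020 for Tjp1.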
